A study of Caenorhabditis elegans with 4 samples.

Results

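The FKH-10 binding peaks of chromosome III were described in the nematode Caenorhabditis elegans at the late embryo stage. The members were all peaks that the authors' list for the whole series places on chromosome III, with no cut on peak strength, and they numbered 377 of 1838 peaks. The lists of the individual ChIP replicates, used to look for support, held 145 peaks on chromosome III of 711 in replicate 1 and 92 of 439 in replicate 2. All positions are on WormBase build WS220. Genes were not assigned to peaks and no sequence is shown, because the gene table at hand is of a different build (WBcel235) and holds no sequence.

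The study held 4 samples, 2 FKH-10 ChIP samples and 2 input samples of total chromatin DNA. All came from hermaphrodites of strain OP337 kept at 20 °C. This strain carries the mutant allele unc119(ed3) and the transgene wgIs377, in which fkh-10 is joined to TY1, EGFP and FLAG tags. The tagged gene was brought in by bombardment together with a working unc-119 gene, and the strain was outcrossed 3 times. ChIP used an antibody against GFP, and no treatment other than fixation in 2% formaldehyde is named. The genotype lists no change at the native fkh-10 gene, and the labels do not say where the transgene sits. The input samples carry the same alleles and had no peak list. Separate cultures are not named for the replicates, so the spread between them may be technical.

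FKH-10 belongs to the forkhead family of transcription factors, which contact DNA through a winged-helix domain and control gene expression in development. In ChIP-seq, DNA bound by the tagged protein in fixed chromatin is pulled down and sequenced, and a peak is a stretch with more reads than a control gives. Autosomes of C. elegans have a centre rich in conserved genes and arms with more repeats and more recombination. Chromosome III carries the main cluster of Hox genes, which set the identity of cells along the body, and, per the WBcel235 annotation, the native unc-119 gene, the marker of this strain. Whether any peak lies at those genes was not analysed on this build. In whole embryos a stronger peak can come from more cells with bound protein or from more binding in each cell, and these cannot be told apart.

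The lists hold positions and 1 value per peak, read as the authors' q-value, and no read counts. The depth of each sample is therefore unknown. Ranks below are places in a whole list ordered by q, where rank 1 is the strongest, out of 1838 for the series, 711 for replicate 1 and 439 for replicate 2. With 1 list per replicate no test over samples can be made, and peaks are not replicates, so counts are given with their exact 95% intervals (Clopper-Pearson), which show the counting error and no other.

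Chromosome III had the densest series peaks of the 6 chromosomes, but the peaks were narrow and none was among the 20 strongest of the list. The 377 peaks gave 27.4 peaks per Mb, beside 22.1 on II and 21.1 on X. In replicate 1 III was also the densest, at 10.5 per Mb beside 9.24 on X. In replicate 2 X was denser, at 7.14 per Mb beside 6.68 on III. The called bases came to 89.0 kb, or 0.646% of the length, beside 0.637% on II and 0.826% on X. The strongest peak of III ranked 21 in the series list, and the best III ranks in the replicate lists were 22 and 15. Chromosome V also had no peak among the 20 strongest, with a best series rank of 23. Of the 50 strongest series peaks 5 lay on III (10.0%, interval 3.33 to 21.8), and of the 500 strongest 101 did (20.2%, interval 16.8 to 24.0), beside 20.5% of all peaks. The median rank of the III peaks was 875. They were spread evenly over the order of the list, with 95 at ranks 1 to 460, 101 at ranks 461 to 919, 91 at ranks 920 to 1379 and 90 at ranks 1380 to 1838.

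Peaks on III had a median width of 194 bp (interval 182 to 211), with quartiles of 107 and 292 bp and a range of 2 to 3038 bp. Peaks of the other chromosomes together had a median of 244 bp (interval 231 to 254), and that of II was close to III at 203 bp (interval 194 to 223). The III peaks were also narrower than the rest at matched ranks. At ranks 1 to 460 the median was 344 bp on III (interval 299 to 410) and 427 bp elsewhere (interval 405 to 464). At ranks 1380 to 1838 it was 105 bp on III (interval 84 to 123) and 153 bp elsewhere (interval 139 to 169). On II the medians in the 4 bands, from the strongest, were 427, 209.5, 182 and 110 bp, beside 344, 215, 165 and 105 bp on III. The replicate lists gave 194 bp on III and 228.5 bp elsewhere in replicate 1, and 294 and 347 bp in replicate 2. These differences were not tested. Wide peaks were rare, with 3 of 377 at 1000 bp or more. Peaks under 50 bp numbered 42 on III (11.1%, interval 8.15 to 14.8), beside 6.98% elsewhere (interval 5.73 to 8.41) and 10.1% on II (interval 7.09 to 13.8). Of these 42 peaks 40 overlapped neither replicate and 2 overlapped replicate 1 alone.

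**Figure D1:**
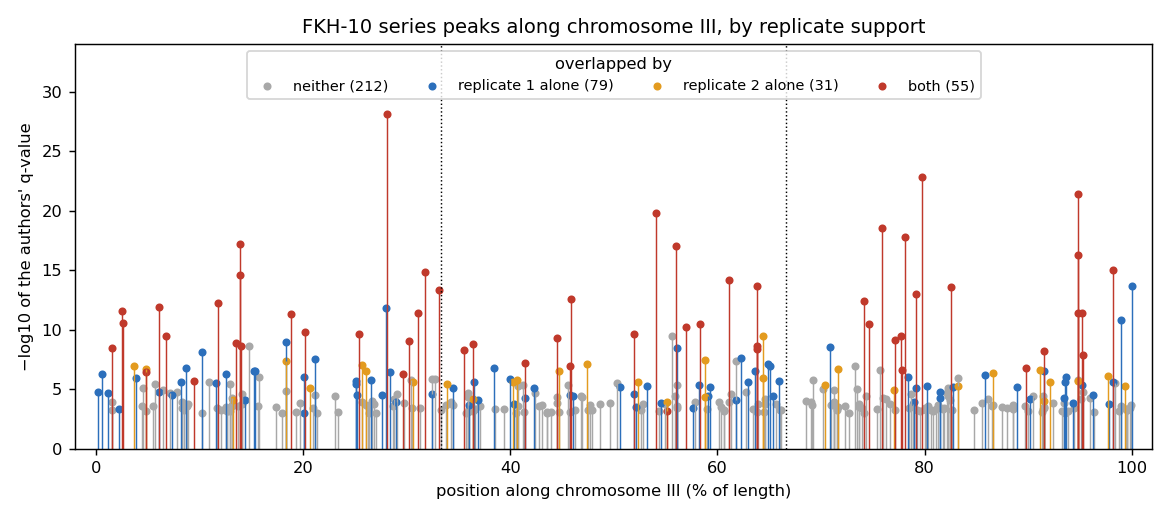
Series peaks along chromosome III. Each line and point is 1 peak, placed by its midpoint in percent of the chromosome length and drawn to the −log10 of the authors' q-value, with colour for the replicate lists that overlap it and dotted lines between the left arm, the centre and the right arm. The tall lines are mostly of peaks overlapped by both replicates (55 peaks), and the 212 peaks overlapped by neither stay low.

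Support by the replicates was much as in the series as a whole. A series peak counted as supported when it shared 1 bp or more with a replicate peak. Of the 377 peaks on III, 55 overlapped both replicates (14.6%, interval 11.2 to 18.6), beside 15.1% of all series peaks. Replicate 1 alone overlapped 79 (21.0%, interval 17.0 to 25.4), beside 18.9% in the whole list. Replicate 2 alone overlapped 31 (8.22%, interval 5.66 to 11.5), beside 6.58%. The remaining 212 overlapped neither (56.2%, interval 51.1 to 61.3), beside 59.4%. In each class the whole-list share lay inside the interval for III. The share in both was 16.0% on II (interval 12.3 to 20.4) and 21.8% on X (interval 17.7 to 26.3).

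Support followed the order of the list. At ranks 1 to 460, 53 of 95 III peaks were in both replicates (55.8%, interval 45.2 to 66.0) and 5 were in neither (5.26%). The other chromosomes had 57.0% in both and 7.95% in neither. At ranks 461 to 919, 1 of 101 was in both (0.990%), while 39 overlapped replicate 1 alone (38.6%) and 14 replicate 2 alone (13.9%). Elsewhere these shares were 2.51%, 32.4% and 13.1%, so the fall was not limited to III. At ranks 920 to 1379, 0 of 91 was in both, which allows a share of up to 3.97%, beside 0.813% elsewhere. At ranks 1380 to 1838, 85 of 90 were in neither (94.4%, interval 87.5 to 98.2), beside 94.6% elsewhere. How the series list was made is not given, and it may draw on the same reads as the replicate lists, so this overlap is no independent support. Width went with support, with a median of 419 bp for III peaks in both replicates, 255 bp for replicate 2 alone, 215 bp for replicate 1 alone and 133 bp for neither. The other chromosomes had the same order, with medians of 445, 313.5, 269.5 and 197 bp. Across the 377 peaks rank and width had a Spearman rho of -0.69, a description of 1 list in which wider peaks had lower ranks.

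**Figure D2:**
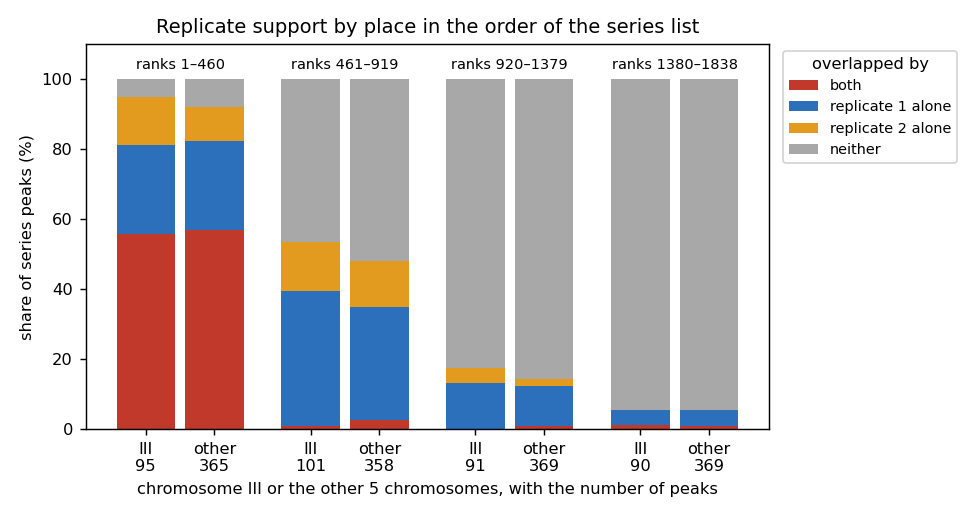
Share of series peaks overlapped by both replicates, by replicate 1 alone, by replicate 2 alone and by neither, in percent, in 4 bands of rank. In each band the left bar is chromosome III and the right bar the other 5 chromosomes, with the number of peaks below. The share in both on III falls from 55.8% at ranks 1 to 460 to 0.990% at ranks 461 to 919. On the other chromosomes it falls from 57.0% to 2.51%.

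The shorter list of replicate 2 had the larger share of peaks found again in the other replicate. Nearly the same number of peaks was shared in each list, so list length fixes which share is larger. Of the 92 replicate 2 peaks on III, 56 overlapped a replicate 1 peak (60.9%, interval 50.1 to 70.9), beside 69.7% in the whole list. Of the 145 replicate 1 peaks, 57 overlapped a replicate 2 peak (39.3%, interval 31.3 to 47.8), beside 43.5%. The other chromosomes together gave 72.0% (interval 67.0 to 76.7) and 44.5% (interval 40.4 to 48.7), and X gave 78.6% and 57.7%. For replicate 2 the share on III lay below the interval of the other chromosomes, and their 72.0% lay above the III interval. The 2 intervals overlap, and the difference was not tested. Among the 20 strongest III peaks of each list, 20 of replicate 2 and 18 of replicate 1 were shared. Shared peaks had a median width of 274 bp in replicate 1 and 350.5 bp in replicate 2, beside 137.5 and 264.5 bp for those not shared. The series list contained 136 of the 145 replicate 1 peaks (93.8%, beside 93.5% of all) and 86 of the 92 replicate 2 peaks (93.5%, beside 96.4%). The 3 lists marked 391 separate places on III, 55 of them in all 3.

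Most of the 15 replicate peaks on III that the series list lacked were weak. The 9 from replicate 1 ranked 389 to 681, and 6 of them were 2 to 37 bp wide. The 6 from replicate 2 ranked 223 to 434 and were 141 to 417 bp wide. Only 1 place was called in both replicates and not in the series list. It lay at 1301539 to 1301900 in replicate 1 (rank 571) and at 1301537 to 1301903 in replicate 2 (rank 321), so its edges differed by 2 and 3 bp.

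The strongest place of chromosome III differed between the lists. The series list had it at 3867368 to 3867707, a peak of only 340 bp with q 7.96e-29, which ranked 33 in replicate 1 and 31 in replicate 2. In replicate 1 it was 10224449 to 10225337 (rank 22), which ranked 43 in replicate 2 and 114 in the series list. In replicate 2 it was 7446847 to 7447877 (rank 15), a place that ranked 24 in replicate 1 and 43 in the series list. All of these places were thus among the strong peaks of every list, in a different order.

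The 20 strongest series peaks of III had q-values from 7.96e-29 to 4.16e-13 and ranks from 21 to 114. Of the 20, 19 overlapped both replicates and 1 overlapped replicate 1 alone. Their median width was 669.5 bp, and 12 were 500 bp or wider. In replicate 2, 17 ranked within the first 100, in replicate 1 11 did, and in both lists 9 did. The right arm held 10, and the left arm and the centre held 5 each. Of the 100 strongest III peaks the left arm held the most, 40, beside 28 in the centre and 32 on the right arm. A neighbouring series peak lay within 10 kb of 14 of the 20 strongest, beside 172 of all 377 peaks.

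On the left arm the strong places included a run of neighbours. The peak at 1920910 to 1921724 (815 bp, series rank 61) ranked 46 in replicate 2, whereas replicate 1 split it into separate narrow calls of ranks 576 and 640. The next peak, at 1923280 to 1923944 (665 bp, series rank 82), ranked 122 in replicate 1 and 74 in replicate 2. A further peak at 1925143 to 1925699 (series rank 242) ranked 375 and 294. All peaks of the run were thus in both replicates. The other left-arm places were isolated from that run. The peak at 4378525 to 4378935 had series rank 80 and replicate ranks 79 and 98. The peak at 4568573 to 4568858, only 286 bp wide, ranked 97 in the series, 134 in replicate 1 and 91 in replicate 2.

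In the centre the strong peaks were wide. The peak at 7446778 to 7447878 spanned 1101 bp, and its nearest series peak lay 50530 bp away. The peak at 7723033 to 7723959 (927 bp, series rank 62) ranked 177 in replicate 1 and 54 in replicate 2. Peaks at 8416923 to 8417809 (887 bp, series rank 83) and 8799813 to 8800675 (863 bp, series rank 89) ranked 259 and 533 in replicate 1 and 128 and 61 in replicate 2, so the second of them was among the strong peaks of replicate 2 and the weak ones of replicate 1. The narrowest of the centre group, at 6317288 to 6317662 (375 bp), ranked 111 in the series, 133 in replicate 1 and 100 in replicate 2.

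On the right arm the strong peaks formed a nearer group and one close to the end of the chromosome. The peak at 10989268 to 10989941 (674 bp) had series rank 31 and ranked 67 and 36 in replicates 1 and 2. In the nearer group too, 10461076 to 10461382 (307 bp) ranked 50, 66 and 72 in the series, replicate 1 and replicate 2, and 10758968 to 10759320 (353 bp) ranked 57, 53 and 131 in the same order of lists. The peak at 11371234 to 11371497, the narrowest of the 20 at 264 bp, ranked 91, 161 and 95. The peak at 10907526 to 10908729, 1204 bp wide, ranked 104 in the series list but 49 and 24 in the replicates. Towards the end of the chromosome, 13070390 to 13071025 (636 bp) ranked 35, 47 and 53, and 13062175 to 13062896 (722 bp) ranked 67, 92 and 80. The peak at 13526539 to 13526977 ranked 78, 116 and 69.

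The widest peak of III lay at its right end and was called in replicate 1 alone. It ran from 13778142 to 13781179 in the series list (3038 bp, rank 90) and from 13778154 to 13781142 in replicate 1 (2989 bp, rank 52). The last replicate 2 peak was far from it, at 13697680 to 13697961 (rank 300). The next widest were the peaks of 1204, 1101, 927 and 889 bp named above, at 10907526, 7446778, 7723033 and 10224449, and each of these was in both replicates. The end peak alone made up 3.41% of the called bases of III in the series list and 8.97% in replicate 1. At the left end the outermost peak was also in replicate 1 and not in replicate 2, at 25708 to 25914 (rank 282) and at 25715 to 25929 in the series list (rank 733). The outermost replicate 2 peak on that side began at 208906.

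The 5 strongest series peaks that overlapped neither replicate ranked between 199 and 399. The first, 7659165 to 7659778, was 614 bp wide and ranked 199 with q 3.06e-10. The second, 2032496 to 2032861, ranked 238 with q 2.16e-09. The others were 8509651 to 8510282 (rank 326), 10096490 to 10096875 (rank 360) and 10436054 to 10436149 (rank 399). Widths within this set ran from 96 to 632 bp, so lack of support was not limited to the narrowest calls.

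Some places in both replicates stood further down the series list than most. They were picked after their values were seen. The peak at 1299606 to 1300476, 871 bp wide, ranked 537 in the series list and 56 and 26 in the replicates. The peak at 7594550 to 7595104 ranked 1637 in the series list and 171 and 165 in the replicates. These places were the 2 of 55 peaks shared by both replicates that fell outside ranks 1 to 460. The median series rank of the 55 was 163. At 931226 to 931869 the series rank was 201, inside that band, and the replicate ranks were 34 and 19.

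Positions of shared peaks were compared between the replicates. Pairs were made by overlap, so the widths of the peaks limit how far apart midpoints can lie. Over the 56 pairs on III, made of each replicate 2 peak and the strongest replicate 1 peak it overlapped, midpoints lay a median of 37.25 bp apart. The largest offset was 375.5 bp, and 47 of the 56 (83.9%) were within 100 bp. On the other chromosomes the median offset was 44.75 bp, and 74.0% of 250 pairs were within 100 bp. Replicate 2 gave the wider peak in 41 of the 56 pairs (73.2%, interval 59.7 to 84.2), beside 147 of 250 elsewhere (58.8%, interval 52.4 to 65.0). The share on II was close to that on III, at 41 of 55 (74.5%, interval 61.0 to 85.3), and X had 51 of 99 (51.5%). Median widths in the III pairs were 350.5 bp in replicate 2 and 274.5 bp in replicate 1. The ranks of the pairs had a Spearman rho of 0.53 (n = 56), beside 0.55 over the 250 pairs elsewhere, with no test, since the points come from the same pair of libraries.

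In 8 of the 56 pairs (14.3%, interval 6.38 to 26.2) both edges agreed within 25 bp, beside 11.2% elsewhere (interval 7.57 to 15.8). The tolerance was chosen after the values were seen. Among the 3 widest of these places the closest match was at 1299609 to 1300476 in replicate 1 and 1299606 to 1300474 in replicate 2, where the edges differed by 3 and 2 bp. At 10907529 to 10908723 in replicate 1, 1195 bp wide, they differed by 4 and 6 bp, and at 10224449 to 10225337 by 24 and 6 bp. The remaining matches included the place absent from the series list and 4 narrower places at 208889, 835795, 1619020 and 10461109, each 233 to 353 bp wide in replicate 1.

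**Figure D3:**
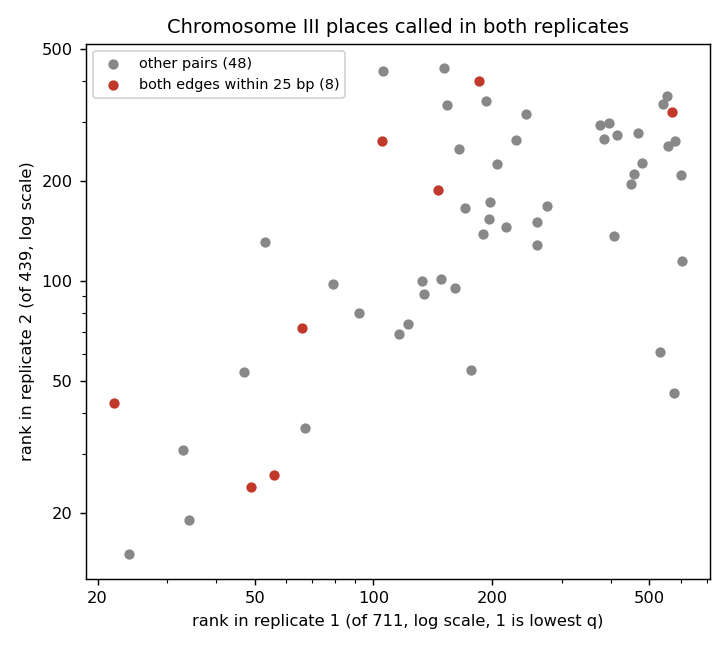
Ranks of the 56 places of chromosome III called in both replicates. Each point is 1 place, with its rank in replicate 1 across and in replicate 2 upwards, both on log scales, and red points are the 8 whose edges agree within 25 bp. Low ranks in one list mostly go with low ranks in the other, and the points scatter widely (rho 0.53).

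Along the chromosome the series peaks were spread almost in proportion to length. The end of the last peak, at 13781179, served as the length, which was cut into a left arm, a centre and a right arm of 33.3% each. The series list had 117 peaks on the left arm (31.0%, interval 26.4 to 36.0), 123 in the centre (32.6%, interval 27.9 to 37.6) and 137 on the right arm (36.3%, interval 31.5 to 41.4). All of these intervals contain 33.3%. In replicate 1 the order was the reverse, with 57 on the left arm (39.3%, interval 31.3 to 47.8), 47 in the centre and 41 on the right arm (28.3%, interval 21.1 to 36.3). In replicate 2 the numbers were 32, 28 and 32. No arm was thus the fullest in all 3 lists. The centre held 35.3% of the series peaks of II (interval 30.2 to 40.7), 40.8% of those of V (interval 35.1 to 46.7) and 30.4% of those of X (interval 25.7 to 35.3). On IV it held 39.8% (interval 34.4 to 45.4). In replicates 1 and 2 the centre held 53.1% and 53.7% on IV and 45.0% and 55.0% on V. On III it held 32.4% and 30.4%, on II 33.3% and 29.9%, and on X 25.2% and 23.0%. These differences were not tested.

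Called bases of the series list came to 27.6 kb on the left arm, 28.8 kb in the centre and 32.7 kb on the right arm, in the same order as its peak numbers. In replicate 1 they were 12.1, 8.79 and 12.4 kb, but without the single peak at the right end the right arm fell to 9.41 kb. In replicate 2 they were 11.1, 10.2 and 11.9 kb. Peak widths differed little between the arms, with series medians of 207, 191 and 193 bp from left to right. Support was 17.9% in both replicates on the left arm (21 of 117, interval 11.5 to 26.1), 13.0% in the centre (16 of 123) and 13.1% on the right arm (18 of 137, interval 7.98 to 20.0). The share in neither was 51.3% on the left arm (interval 41.9 to 60.6), 53.7% in the centre and 62.8% on the right arm (interval 54.1 to 70.9).

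In steps of 10% of the length, the last step held more peaks than any other step in all 3 lists. It had 51 series peaks (13.5%, interval 10.2 to 17.4), while the other steps had 32 to 45. Replicate 1 had 19 there (interval 8.08% to 19.7%), with 18 in each of the first 2 steps. Replicate 2 had 15 (interval 9.42% to 25.5%), with at most 12 elsewhere. Both replicate intervals contain 10%, and the step was picked after the counts were seen. When chains of neighbouring series peaks were counted in place of peaks, the last step had 27 of 271 chains (9.96%) and other steps had up to 32. In the series list the last 10% therefore held the most peaks and not the most separate chains. Other chromosomes had as many or more there in some lists. On II the last 10% held 14.2% of series peaks, 15.5% in replicate 1 and 15.6% in replicate 2, beside 13.5%, 13.1% and 16.3% on III. On X it held 9.68% of series peaks but 19.6% in replicate 1 and 29.4% in replicate 2. On V it held 13.5% of series peaks.

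**Figure D4:**
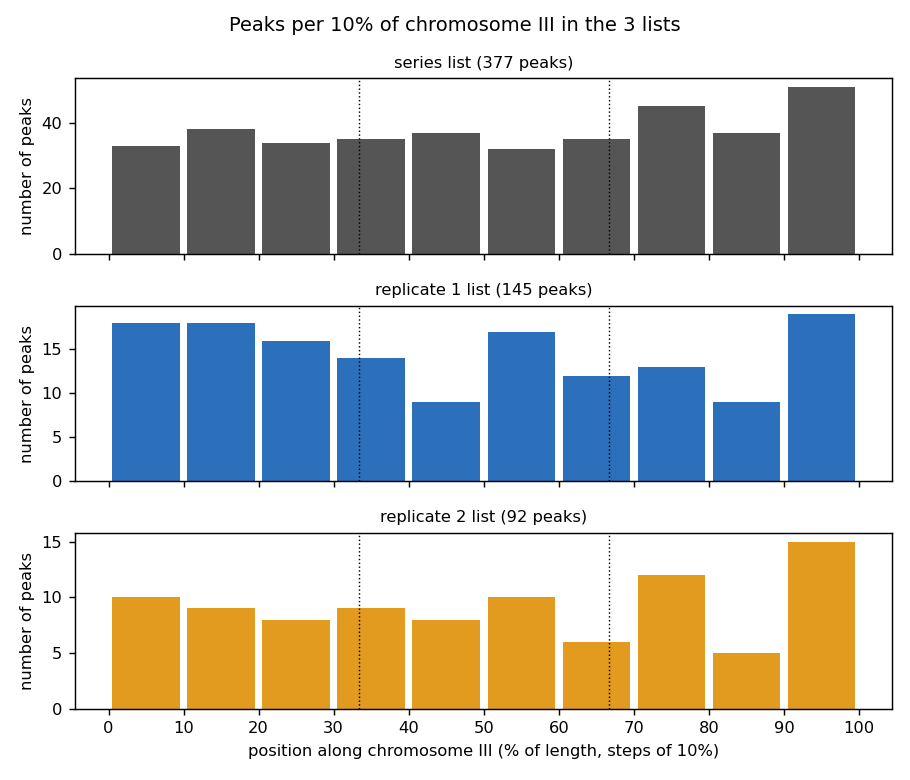
Number of peaks in each 10% of the length of chromosome III, counted by midpoint, in the series list, replicate 1 and replicate 2, with dotted lines between the left arm, the centre and the right arm. The last step holds the most peaks in each list, at 51, 19 and 15.

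In the series list III had fewer very short and fewer very long gaps than II. The median gap from one series peak to the next was 24563.5 bp (interval 19939 to 29140), with quartiles of 8607 and 49637 bp and a range of 252 to 330744 bp. The median was 0.676 of the mean gap on III, beside 0.418 on II, 0.659 on X and 0.448 on IV, where a low value means many short gaps beside a few long ones. Gaps of 1 kb or less numbered 16 on III, 31 on II and 21 on X. Gaps of over 100 kb numbered 26 on III, 39 on II and 55 on X, in lists of 377, 337 and 372 peaks. In replicate 1 these long gaps numbered 50 on III and 46 on II, and in replicate 2 42 and 40. Fewer long gaps on III than on II were thus seen in the series list alone. Gaps of 1 kb or less numbered 3 on III and 11 on II in replicate 1, and 3 and 10 in replicate 2. For the ratio, replicate 1 kept the order of III, X and II, and replicate 2 did not. The ratio on III, II and X was 0.746, 0.396 and 0.598 in replicate 1, and 0.562, 0.615 and 0.637 in replicate 2. These values were not tested. The median gap was 27851 bp on the left arm, 23505 bp in the centre and 23020 bp on the right arm.

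Peaks that lay within 10 kb of each other were joined into chains. The 377 peaks formed 271 chains, of which 205 were single peaks, 43 were pairs and 23 had 3 or more. A neighbour within 10 kb was found for 172 peaks (45.6%, interval 40.5 to 50.8), beside 53.1% on II (interval 47.6 to 58.5) and 47.8% on X (interval 42.7 to 53.1). In replicate 1 the shares on III, II and X were 31.7%, 40.3% and 36.8%, and in replicate 2 they were 38.0%, 35.1% and 31.0%, so III was lowest in the first and highest in the second. In the series list the share on III was 39.3% on the left arm, 43.1% in the centre and 53.3% on the right arm (interval 44.6 to 61.9). Peaks in both replicates had such a neighbour in 35 of 55 cases (63.6%, interval 49.6 to 76.2), and peaks in neither in 89 of 212 (42.0%, interval 35.3 to 48.9). Peaks in replicate 1 alone had one in 30 of 79 cases (38.0%, interval 27.3 to 49.6) and peaks in replicate 2 alone in 18 of 31 (58.1%, interval 39.1 to 75.5), so the share did not follow support in every class. The nearest peak lay a median of 4493 bp away for peaks in both, 12670 bp for neither, 12360 bp for replicate 1 alone and 8551 bp for replicate 2 alone.

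The chain with the most peaks held 7, over 19046 bp from 12598413 to 12617458, and 1 of its peaks was in both replicates while 4 were in neither. Its strongest peak ranked 272. There were 3 chains of 5 peaks. The one at 13061032 to 13071984 held 2759 called bases and 3 peaks in both replicates, with a best rank of 35. The one at 8794965 to 8811294 also had 3 peaks in both replicates and held 1883 called bases, and the one at 7723033 to 7736348 had 1 and held 2020. The fifth by this order, at 9860269 to 9871347, was the shortest of 7 chains of 4 peaks, a tie broken by span after the values were seen, and none of its peaks was in both replicates. By called bases the leading chain was that at the right end, 13763243 to 13781179, with 3319 bases, of which 3038 belonged to the peak already described. The short run at 1920910 to 1925699 held 2037 bases in 3 peaks, all of them in both replicates.

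The widest gap without a series peak ran from 9112683 to 9443426, over 330744 bp, across the border of the centre and the right arm. Neither replicate had a peak in it. The next were 2942058 to 3175110 (233053 bp) and 3224395 to 3456301 (231907 bp), both on the left arm and separated by a short stretch with peaks, and these too held no replicate peak.

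**Figure D5:**
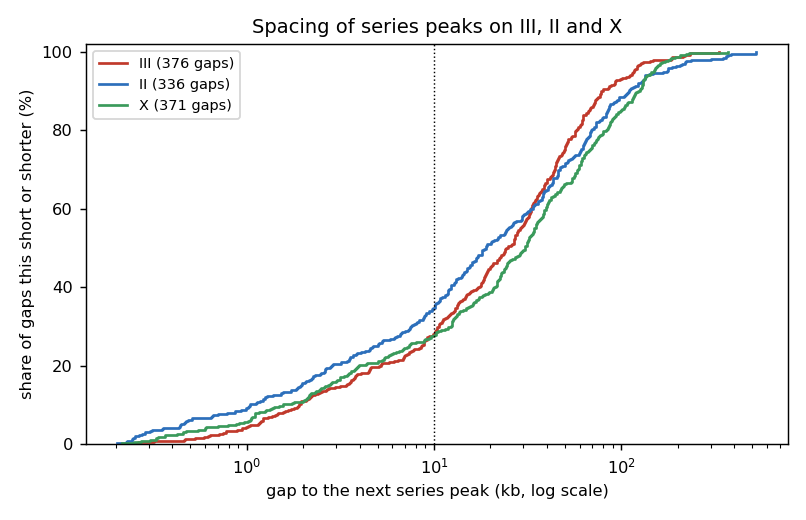
Spacing of series peaks on chromosomes III, II and X. The x axis is the gap to the next peak in kb on a log scale, the y axis the percent of gaps this short or shorter, and the dotted line marks 10 kb. At 10 kb the line of III stands at 28.2% and that of II at 34.8%, and III has fewer gaps of over 100 kb than both.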

How the data were processed

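Peaks of 2 FKH-10 ChIP samples were analysed, and the 2 inputs had no peak list. Peaks had been called by the authors with PeakSeq on build WS220 of WormBase, per the file headers. Not given in the sources used here are its version, the aligner, the threshold, the use of the inputs and the way the series list was made. The value of each deposited peak was read as a q-value by the authors, since it stays below 0.001 and its product with the peak number never fell in any list (0 falls in 3 lists). It was used only to order peaks within a list, with ties in file order. Without read counts the depth is unknown.

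Overlap of 1 bp or more counted as shared. Intervals are exact Clopper-Pearson at 95%, and those of medians come from binomial order statistics. Chains joined peaks with gaps of up to 10 kb. Named places were the 20 strongest series peaks on III, the 5 widest, the 5 largest chains by peaks and by called bases, the 3 widest gaps, the 5 strongest peaks in neither replicate and every place in both replicates but not in the series list. The members, lists and alternatives were chosen with earlier results of these data known. The code returned the planted number in 13 of 13 checks on simulated data. Python 3.11.15, numpy 2.4.6, pandas 2.3.3, scipy 1.17.1 and matplotlib 3.10.9 were used.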

Additional observations from a re-analysis of the deposited data

How the results depend on the processing

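Of 54 values recomputed under the other settings, 35 stayed inside the counting interval of the reported value and 19 moved out of it. Windows of 200 bp around midpoints, peaks of 50 bp or wider and a minimum overlap of 50% moved none of them. With the stricter 50% of a list, support was higher, at 27.6% in both replicates, 73.5% in at least 1 and 26.5% in neither, and 87.5% of replicate 2 and 65.5% of replicate 1 peaks were shared. The stricter 50% was taken of the list being counted and set against the whole of the other lists. In the series list it keeps ranks 1 to 919, with 196 peaks on III, of which 54 were in both replicates. Ranks 1 to 460 alone held 53 of the 55 peaks in both replicates. Why support followed rank was not tested. With fewer peaks the median gap became 50803 bp and the share with a neighbour within 10 kb 32.7%. Without 1 replicate, support counts overlap with the remaining list alone and was 22.8% to 35.5%, with 64.5% to 77.2% unsupported. The spread and spacing were then taken from 1 replicate list. The left arm held 34.8% to 39.3% and the right arm 28.3% to 34.8%, the median gap was 71128.5 to 83145 bp, and 31.7% to 38.0% had a neighbour within 10 kb. Alternatives for the last 10% of the length and for edges were chosen after seeing the data. With chains as units the last 10% held 9.96%. Edges agreed in 3.57%, 5.36% and 30.4% of pairs at 5, 10 and 50 bp. No paired analysis was possible because peak lists were at hand for the ChIP samples alone and none for the inputs of the same numbers. Depth is unknown, so its part in the number of peaks was not tested.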
